A study of Rattus norvegicus with 23 samples.

Results

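The addition of maternal high-fat (HF) diet to maternal diabetes was examined in newborn rat hearts, by comparing 5 hearts exposed to both (combination) with 6 hearts exposed to diabetes alone. These 11 hearts are all the hearts with either label among the 23 hearts of the study, and every one of the 29170 probe sets was used. Both groups were whole hearts of Sprague Dawley offspring taken on postnatal day 1, from dams injected with 65 mg/kg streptozotocin, a toxin of pancreatic beta cells, on gestational day 14. Insulin was given to the dams of both groups with a target of 200 to 400 mg/dl blood glucose, and they delivered on gestational day 22. Combination dams were on the HF diet from 28 days or more ahead of mating, and diabetes dams on a control diet. The remaining hearts came from dams given citrate buffer, 7 on control diet (control) and 5 on HF diet (HF diet), and were used for the spread of each gene and for the diet difference without diabetes. Each heart had its own Affymetrix Rat Gene 1.0 ST array, hybridized from 100 ng of RNA.

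The newborn heart leaves a fetal supply rich in glucose and lactate and turns within days to fatty acids from milk, a change that draws on mitochondrial biogenesis. Most mitochondrial proteins are encoded in the nucleus, made in the cytosol and taken in through import complexes, while the mitochondrial ribosome translates the few respiratory chain subunits encoded by mitochondrial DNA. Growth factor receptors, endothelin, elastic matrix and chromatin regulators act in the same days on growth of the myocardium and its vessels.

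The deposited values are log2 values centred on the median of each probe set over the 23 hearts, so a value is a distance from that median and differences are read as combination minus diabetes. The level of a gene cannot be read, nor can its presence in the tissue be checked. Array medians lay between -0.015 and 0.019, and the SD of an array over all probe sets ran from 0.16 to 0.393, widest in combination heart 1 and near the narrow end in combination hearts 4 and 5. The slope of the values on genomic length was -0.041 per doubling of length in combination heart 1 and between -0.011 and 0.012 in the other 22 hearts, so longer genes read lower in that heart. It was below 0 in all 5 combination hearts and on both sides of 0 in diabetes hearts. Since the slope is computed from the same values, a fit with it as a covariate can also remove part of the group difference. Such a fit cannot separate them. Control heart 1 stood apart from the other 22 hearts, with a mean of 2.88 over lymphocyte and thymus markers and 2.49 over lung epithelium markers, where the others were at most 0.16 and 0.57. That heart enters the spread of each gene and the diet difference without diabetes. Labels also carry a code, whose stem is shared by combination hearts 1 and 2 and by hearts 4 and 5. Whether a stem stands for a litter is not stated, so the p-values reflect a spread among hearts that may include littermates. Stem numbers ran from 2 to 16 in diabetes and from 19 to 24 in combination hearts, and whatever order they stand for cannot be told apart from the diet. Males and females were used together and single hearts carry no label of sex.

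Combination hearts read higher than diabetes hearts for genes of the mitochondrial ribosome and of mitochondrial protein import and for Edn1, Nmu and Ramp3, and lower for Fgfr2, Erbb2, Ulk1 and a set of chromatin regulators, at unadjusted p-values. For most of these, combination heart 1 lay farthest from the diabetes hearts and hearts 4 and 5 overlapped with them. At a log2 difference beyond 0.32, the fold limit of the methods, with an unadjusted p under 0.05 in limma, 886 of the 29170 probe sets differed (3.04%), 486 higher (1.67%) and 400 lower (1.37%) in combination hearts. Among the 15310 probe sets with a single gene symbol 421 differed (2.75%), 277 higher (1.81%) and 144 lower (0.941%), and their median difference was 0.011, with quartiles of -0.079 and 0.11. No probe set reached a Benjamini-Hochberg adjusted p under 0.05 in limma, where 2745 had an unadjusted p under 0.05 and the lowest adjusted p was 0.528. By the methods' unequal variance t-test, 1298 had an unadjusted p under 0.05 and the lowest adjusted p was 0.754. Passing is used below in the sense of the first, unadjusted threshold, and each of the passing genes named has an adjusted p of 0.528 or 0.529. The smallest p that the 462 splits of 11 hearts allow an exact permutation test is 0.00216, and exact p-values given below are unadjusted, for genes chosen by the same difference.

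The hearts did not contribute equally. Over the 277 named probe sets that were higher, the median value was 0.86, 0.43, 0.24, 0.007 and 0.14 in combination hearts 1 to 5, and heart 1 was the highest combination heart for 235 of them. The same median ran from -0.28 to 0.36 in diabetes hearts, highest in heart 5, which was the highest diabetes heart for 236. Over the 144 that were lower, it was -0.73, -0.39, -0.34, -0.023 and -0.047 in combination hearts and from -0.28 in diabetes heart 5 to 0.29 in diabetes heart 6. Combination heart 1 thus lay farthest out, hearts 4 and 5 lay near the study median, and diabetes heart 5 lay on the side of the combination hearts. These medians describe probe sets chosen on the same values. Leaving out combination hearts 1, 2, 3, 4 and 5 in turn gave 277, 570, 1242, 2125 and 1508 passing probe sets. Leaving out diabetes heart 6 gave 507 and diabetes heart 5 gave 2143, while the other 4 diabetes hearts gave 673 to 891. Of the 886, 215 (24.3%) were past the threshold without combination heart 1.

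**Figure D1:**
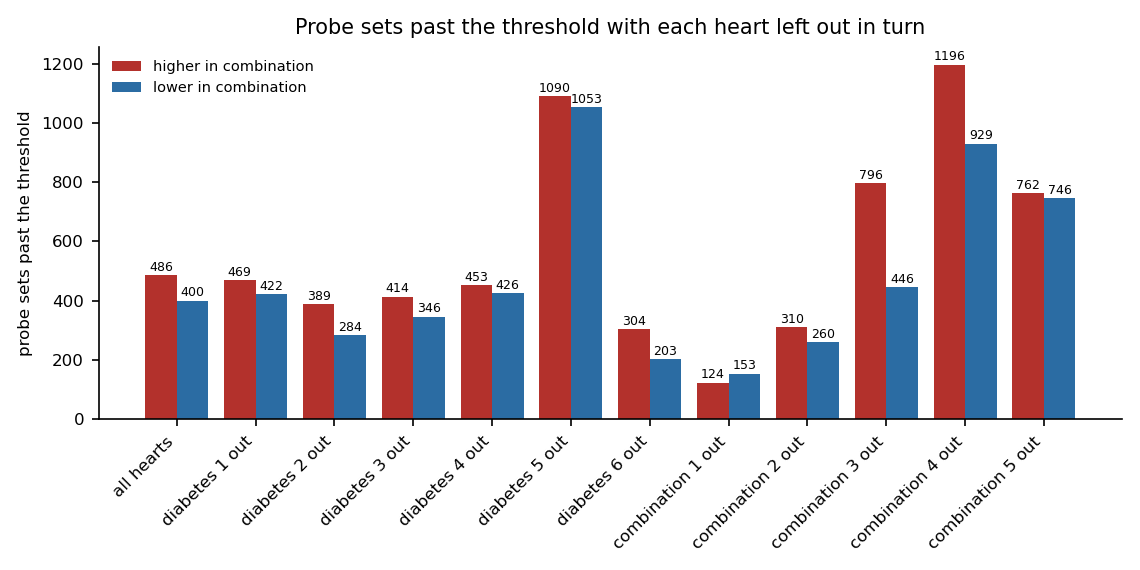
Probe sets past the threshold (y axis, counts on a linear scale from 0) with all hearts and with each of the 11 hearts left out in turn (x axis); red bars are higher and blue bars lower in combination hearts. The total falls to 277 without combination heart 1 and rises to 2143 without diabetes heart 5.

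Genes whose 5 combination and 6 diabetes hearts did not overlap were the narrowest result. At any size this held for 45 of the 15310 named probe sets (0.294%), 29 with combination higher (0.189%) and 16 with combination lower (0.105%). In each direction 1 of the 462 splits of the hearts separates the groups, a share of 0.00216, and neither observed share was above it. Of the 45, 8 also passed the threshold (0.0523%). Separation chose these 8 genes, so it is given as a description. Dtx4, a Deltex ubiquitin ligase that acts on Notch signaling, read -0.63, -0.55, -0.38, -0.15 and -0.079 in combination hearts 1 to 5. In diabetes hearts Dtx4 ran from -0.076 to 0.38 with a median of 0.11, a difference of -0.47 (standard error 0.11). Combination hearts 1 to 3 were well below every diabetes heart, whereas heart 5 and the lowest diabetes heart were nearly equal. Ndst2, which removes acetyl groups from heparan sulfate chains and sulfates them, read -0.54, -0.25, -0.18, -0.15 and -0.096 in combination and from -0.09 to 0.56 with a median of 0.13 in diabetes hearts, a difference of -0.41 (standard error 0.13). All 5 combination hearts were below 0 for Ndst2, heart 1 by far the most, and the gap between the groups was narrow.

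Slc4a4, the electrogenic sodium bicarbonate cotransporter that extrudes acid from myocytes, read -0.63, -0.076, -0.30, -0.029 and -0.16 in combination hearts. Diabetes hearts ran from -0.008 to 0.53 with a median of 0.096 for Slc4a4, with combination heart 1 and diabetes heart 6 farthest apart. The difference of -0.40 (standard error 0.12) was -0.30 and no longer passing without combination heart 1. Pom121, an anchor of the nuclear pore, read -0.66, -0.12, -0.17, -0.15 and -0.20 against -0.10 to 0.41 (median -0.035) in diabetes hearts, and its difference of -0.33 was -0.22 without combination heart 1. On the higher side, the histone H2B gene H2bu1 read 0.55, 0.30, 0.022, 0.37 and 0.39 in combination hearts and ran from -0.32 to 0 with a median of -0.08 in diabetes hearts. Here hearts 4 and 5 lay between hearts 1 and 2, and the difference of 0.44 (standard error 0.12) was 0.38 without combination heart 1 and passing. Mlana, a melanosome protein, read 0.96, 0.034, 0.38, 0.22 and 0.042 against -0.32 to 0.033 (median -0.21) in diabetes hearts, with combination heart 1 highest and hearts 2 and 5 just above the highest diabetes heart. Lysmd2, a gene with a sugar-binding LysM domain, read 0.35, 0.018, 0.11, 0.16 and 0.20 against -0.30 to -0.004 (median -0.20), and Sec11c, a catalytic subunit of the signal peptidase, read 0.82, 0.13, 0.15, 0.084 and 0.12 against -0.32 to 0.06 (median -0.076). Without combination heart 1 the difference of Lysmd2 was 0.31 and that of Sec11c 0.22, and neither passed, whereas those of Dtx4 (-0.41), Ndst2 (-0.34) and Mlana (0.34) did.

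**Figure D2:**
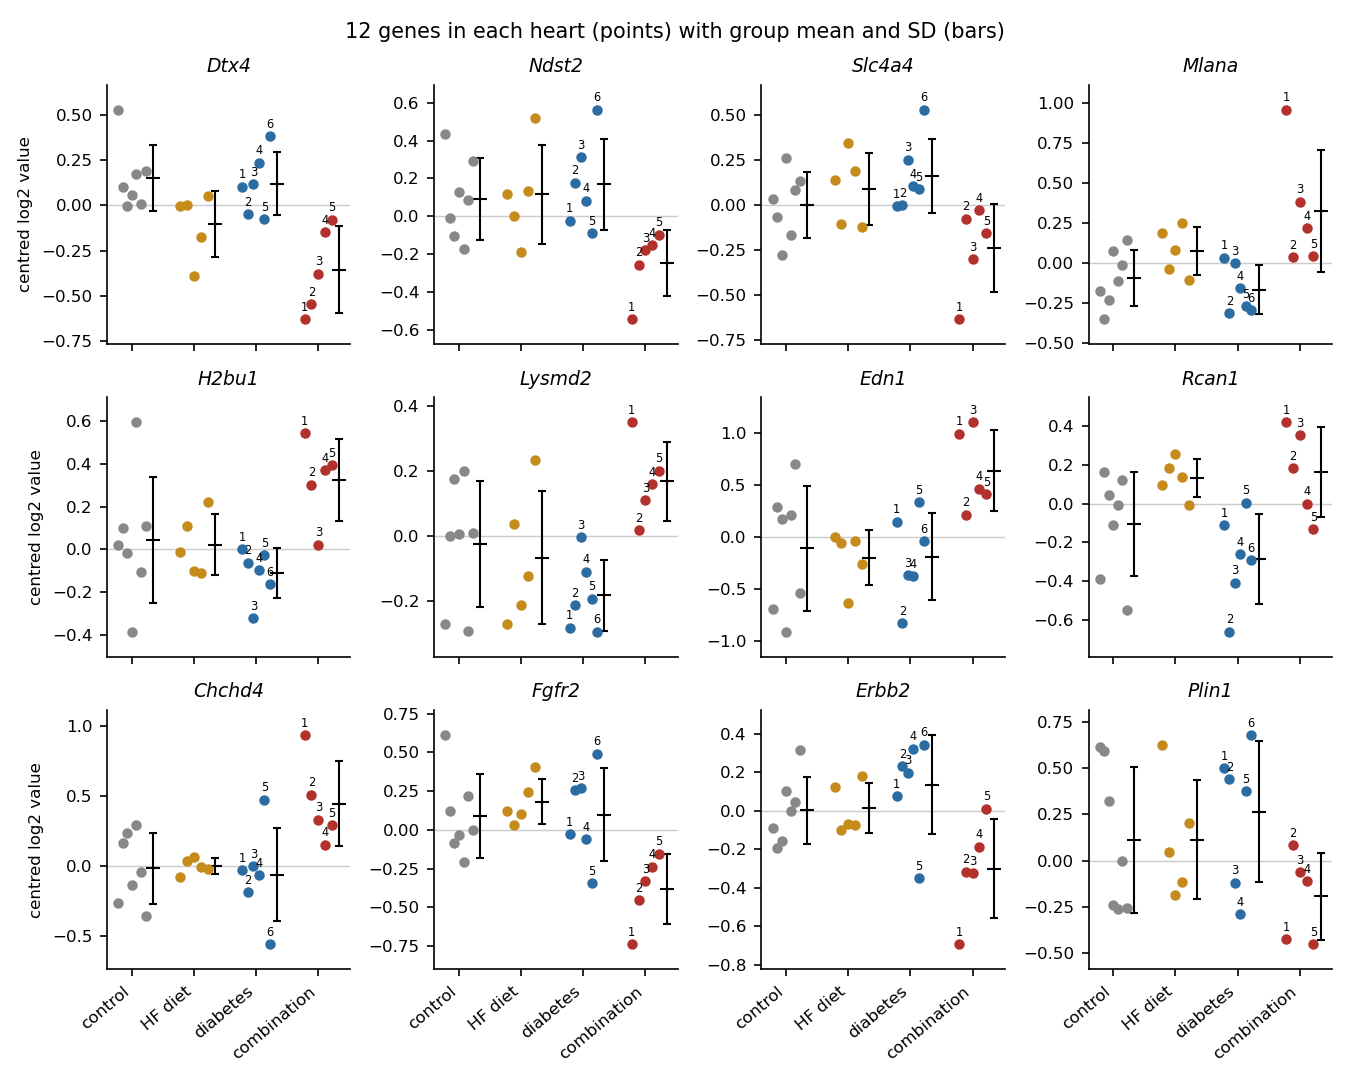
Centred log2 values (y axis) of 12 genes in the 4 groups (x axis); points are hearts, numbered within the diabetes and combination groups, ticks are group means and bars SD. Dtx4, Ndst2, Slc4a4, Mlana, H2bu1 and Lysmd2 do not overlap between combination and diabetes hearts, and combination heart 1 is the farthest point in most panels.

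Genes of the mitochondrial ribosome, which makes the subunits encoded by mitochondrial DNA, were higher in combination hearts for 19 of the 69 measured. Of their 73 probe sets 21 passed upward (28.8%) and 0 downward, where 1.81% of all named probe sets passed upward. All 73 differences were positive, from 0.095 to 0.47, with a median of 0.27. The mean of the list was 0.66, 0.30, 0.13, 0 and 0.14 in combination hearts 1 to 5 and lay between -0.15 and 0.30 in diabetes hearts. Diabetes heart 5 lay next to combination heart 2, and combination heart 4 lay at 0, just above the other 5 diabetes hearts. Without combination heart 1 the median was 0.16 and 0 probe sets passed.

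Mrps35 and Mrps10, proteins of the small mitochondrial subunit, show the pattern. Mrps35 read 0.81, 0.40, 0.24, 0.063 and 0.19 in combination hearts and from -0.25 to 0.22 with a median of -0.087 in diabetes hearts, a difference of 0.40 (standard error 0.12). Combination hearts 1 and 2 lay above all diabetes hearts and heart 4 within them. Mrps10 read 0.96, 0.35, 0.20, 0.13 and 0.24 against -0.36 to 0.32 (median -0.042), a difference of 0.40 (standard error 0.13). Mrpl12, a protein of the large subunit that also binds mitochondrial RNA polymerase, read 0.86, 0.37, 0.31, 0.16 and 0.13 against -0.45 to 0.55 (median -0.10), a difference of 0.43 (standard error 0.16), and diabetes heart 5 exceeded 4 of the 5 combination hearts. Mrpl47 differed by 0.33, while Dap3, a GTP-binding protein of the small subunit, stood at 0.26 and the elongation factor Tufm at 0.20, neither of them passing. Among 20 mitochondrial translation factors and tRNA synthetases only Yars2, the tyrosyl-tRNA synthetase, passed. Yars2 read 1.02, 0.70, 0.55, 0 and 0.097 in combination and from -0.51 to 0.65 with a median of -0.18 in diabetes hearts, a difference of 0.59 (standard error 0.20), and it was 0.45 and passing without combination heart 1.

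Genes of protein import into mitochondria were higher too. Of 48 probe sets for 38 genes of import and cristae, 10 passed upward (20.8%) and 0 downward, with a median of 0.22, and 3 upward without combination heart 1, with a median of 0.15. These 3 were the probe sets annotated to Chchd4, the oxidoreductase that folds incoming proteins of the intermembrane space. The first of them read 0.93, 0.51, 0.33, 0.15 and 0.29 in combination hearts and from -0.56 to 0.47 with a median of -0.048 in diabetes hearts. All 5 combination hearts were above 0 and 5 of the 6 diabetes hearts at or below it, diabetes heart 5 being the exception. The difference was 0.50 (standard error 0.15), and 0.49 and 0.46 by the other 2 probe sets, which may share signal (exact permutation p = 0.0216, 0.0173 and 0.0173, two-sided). The paper lists only the probe set at 0.49 as Chchd4. It lists those at 0.50 and 0.46 under other locus names, the latter as similar to Chchd4. The other 7 passing probe sets, between 0.34 and 0.48, included the small chaperones Timm9 and Timm8a1 of the intermembrane space, the matrix chaperonin Hspe1, the motor factor Grpel1 and the prohibitin Phb1, whose other probe set stood at 0.26, all 5 named after their values were seen. The paper lists the passing Phb1 probe set as a locus similar to prohibitin. Pam16, a subunit of the import motor, differed by 0.48 by one probe set and by 0.31, short of the threshold, by another, and was chosen after its values were seen. Tomm20, the receptor of the outer membrane, stood at 0.18 and did not pass.

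In the respiratory chain most genes that passed encode assembly factors, proteins that help build a complex without staying in it. In complex I, the entry point of electrons from NADH, 7 of 43 probe sets passed upward (16.3%) and 0 downward, with a median of 0.19, and 0 passed without combination heart 1, where the median was 0.13. The assembly factor Timmdc1 read 1.15, 0.36, 0.40, 0.13 and 0.24 in combination hearts against -0.50 to 0.52 (median -0.035) in diabetes hearts, a difference of 0.50 (standard error 0.17). The assembly factors Ndufaf4 (0.37), Ndufaf1 (0.36) and Tmem126b (0.42) and the accessory subunits Ndufa2 (0.34) and Ndufs5 (0.34 and 0.35 by 2 probe sets) also passed, whereas the core subunit Ndufs1 stood at 0.032. In complexes II to V 6 of 68 probe sets passed upward (8.82%) and 0 downward, with a median of 0.10, and all 6 encode assembly factors. These were Sdhaf1 (0.33), Sdhaf2 (0.34) and Sdhaf3 of complex II, Bcs1l (0.58) and Lyrm7 (0.43) of complex III and Atpaf2 (0.35) of the ATP synthase. Tmem126b, Ndufa2, Ndufs5, Sdhaf1, Bcs1l and Lyrm7 were named, and the share of assembly factors was noticed, after the values were seen. How many members of these lists encode assembly factors was not counted, and whether they passed more often than subunits was not tested. Sdhaf3, an assembly factor of succinate dehydrogenase, read 0.86, 0.57, 0.33, 0.034 and 0.19 against -0.47 to 0.44 (median -0.16), a difference of 0.50 (standard error 0.17), and was the passing member of this list without combination heart 1 (0.38). The catalytic subunit of the same enzyme, Sdha, stood at 0.021. Both subunits of the mitochondrial pyruvate carrier passed, Mpc1 at 0.42 (standard error 0.16) and Mpc2 at 0.42 (standard error 0.14), the 2 passing among 25 probe sets of pyruvate oxidation and the citric acid cycle. Without combination heart 1 they stood at 0.28 and 0.27 and neither passed. With the slope on genomic length as a covariate, 0 members of any of these 5 mitochondrial lists passed, and their medians were 0.064 for the ribosome, 0.045 for translation factors, 0.073 for import, 0.045 for complex I and 0.029 for complexes II to V. The slope itself is computed with these genes included, so this fall does not tell gene length from the group difference.

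Promoters of Chchd4, Timmdc1 and Sdhaf3 are shown because binding sites of NRF1 and of ETS factors, among them NRF2 (GABP), are known from promoters of nuclear genes for mitochondrial proteins. These 3 of the genes above were picked by hand, with 1 kind of site marked in each, and do not show how common the sites are. The sequences are the 250 bases before the RefSeq start on the GRCr8 rat assembly, written 5′ to 3′ on the strand of the gene, with matches in capitals on either strand. For Chchd4 (chr4:125534563-125534812, minus strand) the capitals are 2 matches to the NRF1 site, GCGC and TGCGC with any base N between them, 191 and 102 bases before the start. For Timmdc1 (chr11:75734304-75734553, plus strand) they are 4 matches to CCGGAAG, an ETS site, of which 2 overlap on opposite strands, and for Sdhaf3 (chr4:36066713-36066962, plus strand) 1 match to CCGGAAG.
Chchd4: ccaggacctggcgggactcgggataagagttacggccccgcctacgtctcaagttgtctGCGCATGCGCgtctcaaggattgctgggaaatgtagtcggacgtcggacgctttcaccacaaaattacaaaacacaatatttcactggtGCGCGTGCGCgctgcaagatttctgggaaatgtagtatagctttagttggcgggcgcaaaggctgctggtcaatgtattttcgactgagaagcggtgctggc
Timmdc1: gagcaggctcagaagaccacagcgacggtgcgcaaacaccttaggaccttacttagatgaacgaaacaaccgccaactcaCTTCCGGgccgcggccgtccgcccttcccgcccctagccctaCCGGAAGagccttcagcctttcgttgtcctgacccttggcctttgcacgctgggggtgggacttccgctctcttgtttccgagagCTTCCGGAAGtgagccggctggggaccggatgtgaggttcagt
Sdhaf3: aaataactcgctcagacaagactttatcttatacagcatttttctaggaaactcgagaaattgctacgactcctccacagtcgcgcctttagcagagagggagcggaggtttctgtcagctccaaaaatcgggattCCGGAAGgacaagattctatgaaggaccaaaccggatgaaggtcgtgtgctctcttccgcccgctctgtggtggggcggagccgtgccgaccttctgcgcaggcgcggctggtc

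Of 11951 array genes with a promoter in the RefSeq table, 6.74% held the NRF1 site and 11.2% held CCGGAAG in this window. Among genes that passed upward the shares were 11% and 21.6% (26 and 51 of 236), and among genes that passed downward 4.27% and 3.42% (5 and 4 of 117). CCGGAAG was found in 11 of 55 mitochondrial ribosome promoters, 16 of 36 of import, 10 of 38 of complex I, 20 of 52 of complexes II to V and 0 of 19 of the sarcomere. Chromatin regulators, lower in combination hearts, held it in 4 of 33 (12.1%). The NRF1 site was in 12.7% to 16.7% of promoters of these mitochondrial lists, in 15.2% of those of chromatin regulators and in 0 of the sarcomere. Without combination heart 1, CCGGAAG was in 8 of 41 promoters of genes passing upward (19.5%) and 1 of 27 of those passing downward (3.7%), and the NRF1 site in 2 (4.88%) and 2 (7.41%). A match describes letters in the window and shows no binding.

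Genes of fuel choice had few members past the threshold. Of 39 probe sets of fatty acid oxidation and PPAR targets 0 passed, with a median of 0.025 and 21 positive differences. The mean of that list was -0.30, -0.26, -0.20, 0.16 and 0.16 in combination hearts and lay between -0.24 and 0.12 in diabetes hearts, so combination hearts 1 and 2 lay below all diabetes hearts and hearts 4 and 5 above them. Cpt1b, the gate for fatty acid entry into muscle mitochondria, stood at -0.056 (standard error 0.10). Pdk4, the kinase that closes pyruvate dehydrogenase when fatty acids are burned, read -0.58, -1.51, -0.72, 0.008 and -0.09 in combination hearts against -1.73 to 0.65 (median 0.14), and its difference of -0.55 (standard error 0.33) did not pass. Of 47 glycolysis and lactate probe sets 0 passed, with a median of 0.035. Cs, which encodes citrate synthase, stood at 0.02 and 0.045 by 2 probe sets and the pyruvate dehydrogenase subunit Pdha1 at 0.072 and 0.058. Pfkm, the muscle phosphofructokinase, stood at 0.034 and Pgk1, which yields ATP in glycolysis, at 0.28, under the fold limit. Among 19 probe sets for breakdown of ketone bodies and branched-chain amino acids Hibch, an enzyme of valine breakdown, passed at 0.36.

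**Figure D3:**
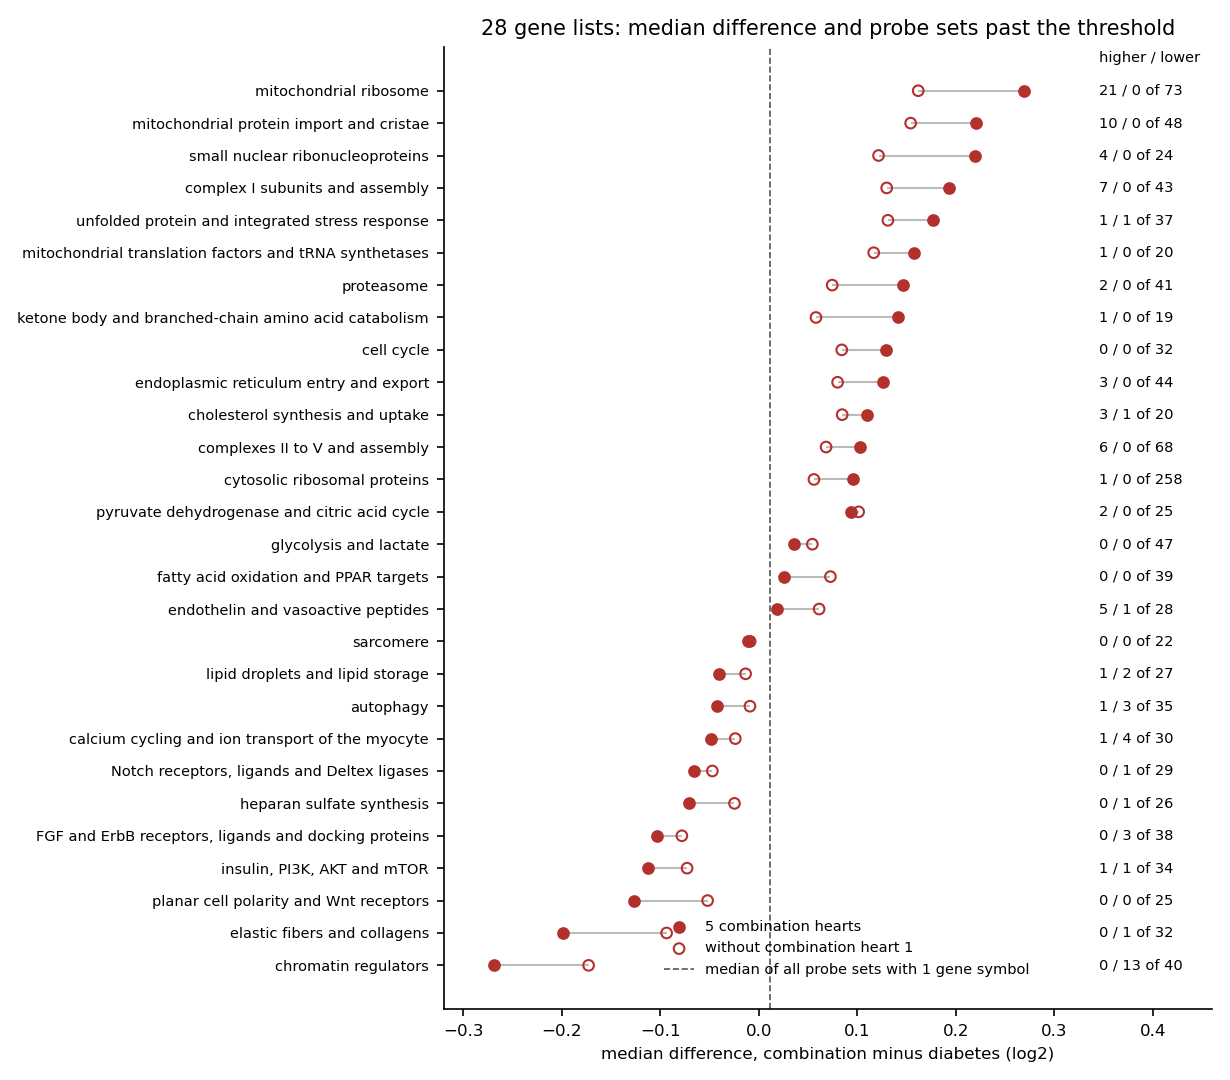
Median log2 difference, combination minus diabetes (x axis), of 28 gene lists (y axis), with all 5 combination hearts (filled) and without combination heart 1 (open); the dashed line is the median of all 15310 named probe sets, and the numbers at the right are probe sets past the threshold upward and downward of those in the list. Mitochondrial ribosome (0.27) and chromatin regulators (-0.27) lie at the ends, and both move toward 0 without heart 1.

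The growth factor receptors Fgfr2 and Erbb2 were lower in combination hearts. Of 38 probe sets for FGF and ErbB receptors, ligands and docking proteins 0 passed upward and 3 downward (7.89%, against 0.941% of all named probe sets), with a median of -0.10. Fgfr2, a receptor for FGF ligands of epicardium and endocardium, read -0.74, -0.45, -0.33, -0.24 and -0.15 in combination hearts and from -0.34 to 0.49 with a median of 0.11 in diabetes hearts. All 5 combination hearts were below 0, and of the diabetes hearts heart 5 alone lay among them. The difference was -0.48 (standard error 0.14), a 1.39-fold lower value (exact permutation p = 0.0216, two-sided), and -0.39 without combination heart 1. Erbb2, the coreceptor for neuregulin in myocytes, read -0.69, -0.32, -0.33, -0.19 and 0.01 against -0.35 to 0.34 (median 0.21), a difference of -0.44 with a standard error of 0.12 (exact permutation p = 0.0238, two-sided), and again diabetes heart 5 was the one below 0. Fgf7, a mesenchymal ligand of the Fgfr2 splice form of epithelia, differed by -0.33 (standard error 0.13). Fgfr2 and Erbb2 passed without combination heart 1 and Fgf7 did not. With the slope on genomic length as a covariate Fgf7 passed (-0.34), whereas Fgfr2 (-0.29) and Erbb2 (-0.23) did not.

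Downstream of these receptors few genes passed. Of 34 insulin, PI3K, AKT and mTOR probe sets 1 passed upward and 1 downward, with a median of -0.11 and 4 positive differences. Irs1, the docking protein of the insulin receptor, read -0.32, -0.32, 0.26, -0.11 and -0.26 against -0.11 to 0.54 (median 0.21), a difference of -0.34 (standard error 0.13), with combination heart 3 well inside the diabetes range. Them4, an AKT-binding thioesterase, was higher at 0.36 (standard error 0.13). The insulin receptor Insr stood at -0.28 and -0.20 by its 2 probe sets and Akt2 at -0.019, none of them passing. Heparan sulfate is the coreceptor of FGFs, and of 26 probe sets for its synthesis Ndst2 alone passed. Of 29 Notch probe sets Dtx4 alone passed, and of 25 for planar cell polarity and Wnt receptors 0 passed, with 2 positive differences and a median of -0.13. These 25 probe sets cover 25 of the 31 genes listed, and their lowest difference was -0.28. For the same comparison the paper lists Vangl1, a planar cell polarity gene, and Celsr1 as lower by more than that. Their probe sets are thus not among the 25, and the list does not cover them.

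In autophagy, by which cells digest their own contents under nutrient control, 1 of 35 probe sets passed upward and 3 downward (8.57%). Ulk1, the kinase that starts it, read -0.80, -0.13, -0.38, -0.043 and 0 in combination hearts and from -0.30 to 0.45 with a median of 0.27 in diabetes hearts, a difference of -0.47 (standard error 0.15). Combination hearts 1 and 3 lay below all diabetes hearts, and hearts 4 and 5 near 0. Its partner Atg13 differed by -0.40 (standard error 0.15) and the lysosome reformation protein Zfyve26 by -0.41 (standard error 0.13), while Vmp1, a membrane protein of early autophagosomes, was higher at 0.35 by one probe set and stood at 0.087 by another, named after its values were seen. The median of the list was -0.043. Ulk1, Atg13 and Zfyve26 passed without combination heart 1, at -0.33, -0.34 and -0.33.

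Chromatin regulators, which open or close DNA for transcription, had the lowest median of the 28 pathway lists and the longest genes of all 42 lists, with a median genomic length of 84770 bases. Of 40 probe sets for 39 genes 0 passed upward and 13 downward (32.5%), with a median of -0.27 and 1 positive difference. The mean of the list was -0.61, -0.17, -0.26, -0.019 and -0.10 in combination hearts and lay between -0.26 and 0.19 in diabetes hearts, lowest in heart 5. Rere, an atrophin corepressor, read -0.87, -0.43, -0.32, -0.022 and -0.15 against -0.33 to 0.26 (median 0.079), a difference of -0.40 (standard error 0.13). The demethylase Kdm4a read -0.73, -0.089, -0.44, -0.17 and -0.047 against -0.27 to 0.33 (median 0.085), a difference of -0.38 (standard error 0.14), and the acetyltransferase Ep300 -0.57, -0.15, -0.32, 0 and -0.03 against -0.25 to 0.51 (median 0.18), a difference of -0.37 (standard error 0.16). Combination heart 1 was the lowest heart for each, and heart 4 was at or near 0 for Rere and Ep300. Smarcd1, a subunit of the SWI/SNF remodeling complex, passed at -0.45 (standard error 0.16), as did the methyltransferase Kmt2d (-0.47) and the acetyltransferase Crebbp (-0.37), both chosen after their values were seen. Without combination heart 1, 1 probe set passed and the median was -0.17. With the length slope as a covariate 0 passed and the median was -0.039, with Rere at -0.14, Kdm4a at -0.10 and Ep300 at -0.10. Over all named probe sets, the median difference was 0.032 and 0.043 in the 2 shortest of 5 equal bins of genomic length and -0.050 in the longest, and without combination heart 1 it was 0.026, 0.032 and -0.020.

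**Figure D4:**
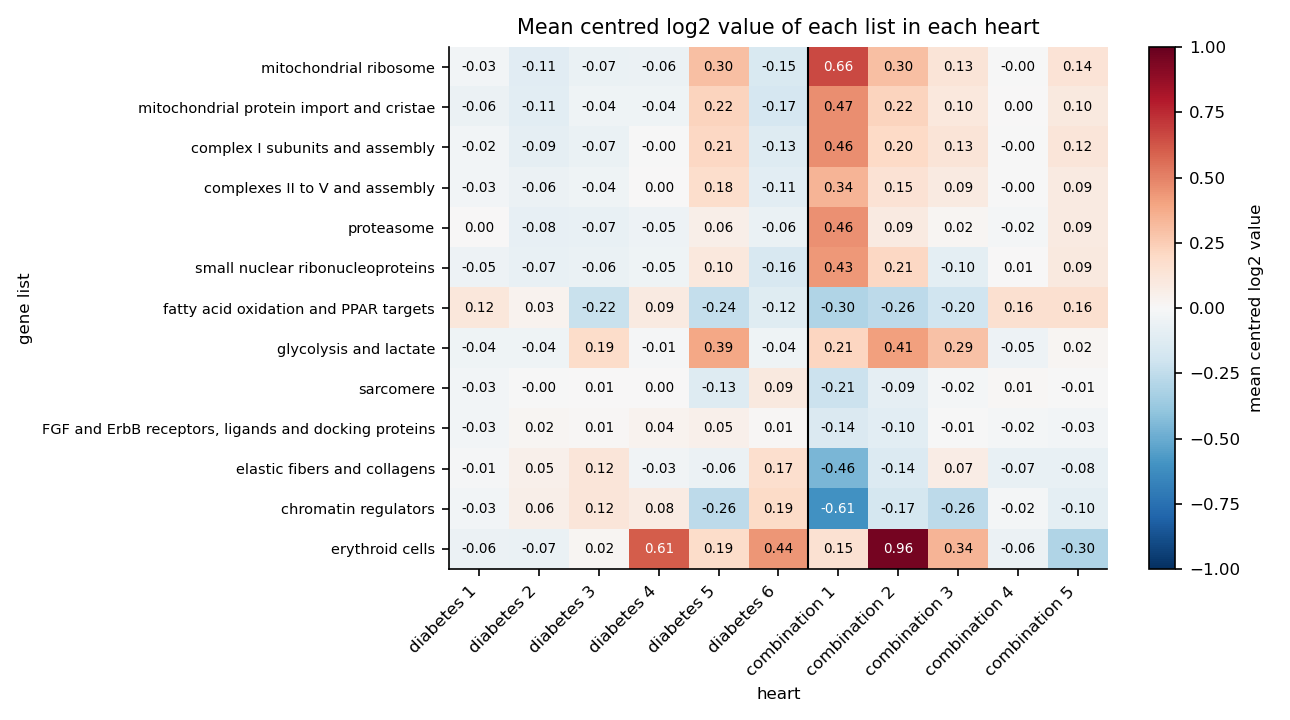
Mean centred log2 value of 13 gene lists (y axis) in each of the 6 diabetes and 5 combination hearts (x axis), as color and number. Mitochondrial lists are highest in combination heart 1 (0.66 for the ribosome) and chromatin regulators lowest there (-0.61), diabetes heart 5 resembles combination heart 2 in the mitochondrial lists, and combination hearts 4 and 5 stay within 0.14 of 0 for both.

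Among peptides that act on vessels and myocytes, Edn1, which encodes the vasoconstrictor endothelin 1, had the largest difference of the named genes past both limma and the methods' t-test. Edn1 read 0.99, 0.21, 1.10, 0.46 and 0.41 in combination hearts 1 to 5 and from -0.83 to 0.33 with a median of -0.21 in diabetes hearts. All 5 combination hearts lay above 0 and 4 of the 6 diabetes hearts below it, with diabetes heart 5 above combination heart 2. The difference was 0.83 (standard error 0.26), a 1.77-fold higher value (exact permutation p = 0.00866, two-sided), and 0.74 and passing without combination heart 1. With the length slope as a covariate it was 0.52 and did not pass. Of 28 endothelin and vasoactive probe sets 5 passed upward (17.9%) and 1 downward (3.57%), with a median of 0.018.

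The Edn1 promoter is shown because AP-1 and GATA sites are known to drive the human gene. In these 250 bases before the RefSeq start (chr17:22666688-22666937, minus strand, GRCr8) the capitals are, in order, TTATCT, the GATA site, TGACTAA, close to an AP-1 site, and TATAAAA, the letters of a TATA box, on either strand. They begin 214, 186 and 110 bases before that start, and whether any of them serves it was not tested.
Edn1: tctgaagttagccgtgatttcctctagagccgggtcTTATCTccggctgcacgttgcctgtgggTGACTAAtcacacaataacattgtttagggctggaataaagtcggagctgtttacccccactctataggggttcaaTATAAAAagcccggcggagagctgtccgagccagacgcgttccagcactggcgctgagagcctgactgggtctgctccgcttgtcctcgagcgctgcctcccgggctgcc

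TTATCT was present in 8.59%, TGACTAA in 1.67% and TATAAAA in 4.33% of all 11951 promoters. Rcan1, a calcineurin inhibitor that calcineurin itself induces, read 0.42, 0.18, 0.35, 0 and -0.13 in combination hearts against -0.66 to 0.005 (median -0.28) in diabetes hearts, a difference of 0.45 (standard error 0.13), with 3 of the 5 combination hearts above all diabetes hearts. Kcne1, a subunit of the slow delayed rectifier potassium channel, neighbours Rcan1 on chromosome 11 in RefSeq. Kcne1 read 1.66, 1.18, 1.76, 0.084 and 0.011 in combination hearts and from -0.57 to 1.45 with a median of -0.021 in diabetes hearts. Combination hearts 1 to 3 and diabetes heart 5 were high and the 7 other hearts lay between -0.57 and 0.125, so the groups overlapped and the difference of 0.85 (standard error 0.33) did not pass without combination heart 1. Ramp3, a partner of the adrenomedullin receptor, was high in the same 3 combination hearts, at 1.02, 1.48, 1.47, -0.13 and -0.26 against -0.36 to 0.35 (median 0.049), a difference of 0.68 (standard error 0.24). Its relative Ramp1 (0.51) and the stress cytokine Gdf15 (0.33), both chosen after their values were seen, also passed, and the natriuretic peptide gene Nppb stood at 0.29 and did not. Aplnr, the apelin receptor, was lower at -0.45 (standard error 0.20).

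Of 30 probe sets for calcium cycling and ion transport 1 passed upward (Kcne1) and 4 downward (13.3%), and 0 passed without combination heart 1. Gja5, the gap junction protein of atria and conduction system, read -0.63, -0.34, -1.09, 0.011 and 0.027 against -0.51 to 0.66 (median 0.041), a difference of -0.49 (standard error 0.22). Rbm20, which splices titin, differed by -0.37 (standard error 0.14), and Cacna1c, the L-type calcium channel, by -0.39 (standard error 0.18), the latter chosen after its values were seen. Of 22 sarcomere probe sets 0 passed, with a median of -0.011, and Myh6, the fast myosin heavy chain, read -0.61, -0.067, -0.11, 0.091 and -0.026 in combination hearts and from -0.24 to 0.072 with a median of 0.017 in diabetes hearts. Myh7 (-0.26), Tnnt2 (-0.086), the calcium pump Atp2a2 (-0.13) and the calcium release channel Ryr2 (-0.31) did not pass. Myh6 was low in combination heart 1 and within 0.25 of 0 in the other 10 hearts.

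Lipid genes were mixed. Among 27 lipid droplet and storage probe sets 1 passed upward and 2 downward. Plin1, the droplet coat of fat cells, read -0.43, 0.082, -0.062, -0.11 and -0.45 in combination hearts and from -0.29 to 0.68 with a median of 0.41 in diabetes hearts, a difference of -0.46 (standard error 0.20). Combination hearts 1 and 5 lay below all diabetes hearts and the other 3 within their range. The hormone-sensitive lipase Lipe differed by -0.38 (standard error 0.18). Both are also adipocyte markers, and of 11 adipocyte probe sets these 2 passed downward (18.2%) and 0 upward, with a median of -0.36. The defining adipocyte gene Adipoq, which encodes adiponectin, read -1.03, 0.56, -0.80, -0.52 and -1.06 against -0.58 to 1.35 (median 0.60), and its difference of -0.95 (standard error 0.47) did not pass. Ucp1, the uncoupling protein of brown fat, stood at -1.32 (standard error 0.75), short of the threshold, and was chosen after its values were seen. The mean of the adipocyte list lay between -0.29 and 0.081 in combination and between -0.27 and 0.57 in diabetes hearts, and its part in the Plin1 and Lipe differences was not tested. In a whole heart, fewer cells of a type and less RNA per cell cannot be told apart. Plin3, a droplet coat of other cells, was higher at 0.61 (standard error 0.25).

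Of 20 probe sets of cholesterol synthesis and uptake 3 passed upward (15%) and 1 downward (5%), with a median of 0.11. Idi1, an enzyme of the isoprenoid steps, read 0.98, 0.57, -0.43, 0.34 and 0.55 in combination hearts and from -0.63 to 0.12 with a median of -0.096 in diabetes hearts, a difference of 0.59 (standard error 0.22). Combination heart 3 lay among the lowest hearts for Idi1 and the other 4 above all diabetes hearts. Fdps, the next synthase, differed by 0.40 (standard error 0.18) and Msmo1, a sterol oxidase, by 0.35 (standard error 0.16), both upward. Abca1, which exports cholesterol, was lower at -0.58 (standard error 0.28), on values of -0.73, -0.83, -0.79, -0.084 and 0 against -0.73 to 1.246 (median 0.11), a wide overlap. Of these 4 genes Msmo1 passed without combination heart 1, at 0.37.

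Genes of RNA and protein handling that passed were mostly higher in combination hearts, where 1.81% of all named probe sets passed upward. Of 24 probe sets of small nuclear ribonucleoproteins, the core of the spliceosome, 4 passed upward (16.7%) and 0 downward, with a median of 0.22. Snrpd1 read 0.50, 0.31, -0.068, -0.13 and 0.20 in combination hearts and from -0.70 to 0.048 with a median of -0.45 in diabetes hearts, a difference of 0.52 (standard error 0.18) that passed without combination heart 1 (0.44) and with the length slope as a covariate (0.42). Snrnp27 (0.43) and Snrpd2 (0.37) passed with all hearts. Of 44 probe sets of entry into and export from the endoplasmic reticulum 3 passed upward (6.82%). These were Sec11c and Ostc (0.36), a subunit of the oligosaccharyltransferase, and Tmed5 (0.33) of early vesicles. Of 37 probe sets of the unfolded protein and integrated stress response 1 passed in each direction, the secreted chaperone Creld2 at 0.47 (standard error 0.19) and the amino acid sensor kinase Eif2ak4 at -0.35 (standard error 0.15). The proteasome had 2 of 41 passing upward (4.88%), Psma2 and Psmd14 (0.37). Without combination heart 1, 1 small nuclear ribonucleoprotein probe set passed upward, and 0 of the endoplasmic reticulum list and 0 of the proteasome list. Psma2 read 1.36, 0.30, 0, 0 and 0.042 in combination hearts against -0.16 to 0.005 (median -0.12), so that its difference of 0.44 was 0.19 without combination heart 1. Of 258 probe sets of cytosolic ribosomal proteins 1 passed, 1 of the 2 for Rps3 (0.36, the other at 0.19), with a list median of 0.096, and of 32 cell cycle probe sets 0 passed.

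Elastic fibers and collagens had 1 of 32 probe sets passing downward and 0 upward, a median of -0.20 and 1 positive difference. Eln, which encodes elastin, read -1.02, -0.26, -0.28, 0.055 and -0.19 in combination hearts and from -0.37 to 0.43 with a median of 0.14 in diabetes hearts, a difference of -0.46 (standard error 0.21) that was -0.29 without combination heart 1. Col1a1, the main fibrillar collagen chain, stood at -0.30 (standard error 0.12), under the fold limit. Without combination heart 1 the median of the list was -0.094.

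The rest of the 10 largest differences in each direction past both limma and the methods' t-test, which 106 named probe sets were (0.692%), were genes of other functions. Nmu, which encodes the peptide neuromedin U, read 0.97, 0.73, 0.43, 0.053 and 0.02 in combination hearts and from -0.26 to 0.14 with a median of -0.20 in diabetes hearts, a difference of 0.56 (standard error 0.15). The histidine and peptide transporter Slc15a4 of lysosomes read 0.57, 0.60, 0.25, 0.14 and 0.056 against -0.68 to 0.081 (median -0.13), a difference of 0.52 (standard error 0.13), and all 5 combination hearts were above 0. Both passed without combination heart 1 (0.42 and 0.46) and with the length slope as a covariate (0.35 and 0.48). Tstd3 (0.64), Nif3l1 (0.56), the ciliary transport gene Ift43 (0.55), Pter (0.54) and the small heat shock gene Hspb3 (0.53) were the other increases. Downward, Bcl2l11, which encodes the death-promoting protein BIM, read -0.46, -0.52, -0.30, -0.034 and 0.20 against -0.082 to 0.67 (median 0.35), a difference of -0.51 (standard error 0.18). The protocadherin Pcdh17 read -0.47, -0.28, -0.73, -0.013 and -0.12 against -0.055 to 0.43 (median 0.20), a difference of -0.50 (standard error 0.17), and its 5 combination hearts were all below 0. Coq8a, a kinase-like protein of coenzyme Q synthesis, read -0.11, -0.36, -0.35, -0.12 and 0.22 against -0.32 to 0.77 (median 0.32), a difference of -0.45 (standard error 0.17) that was -0.46 without combination heart 1, unlike most genes above. The ubiquitin ligase Trim25 (-0.47), the guidance molecule Rgma (-0.44) and the olfactory receptor Or4x6 (-0.47) were the other decreases. Olfactory and vomeronasal receptors, for which heart expression was not checked, passed in 10 of 1271 probe sets (0.787%).

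Markers of other cell types passed rarely. Of 14 marker lists, those of cardiomyocytes, fibroblasts, endothelial cells, smooth muscle, epicardium, erythroid cells, lymphocytes, lung, liver, skeletal muscle and the male list had 0 members passing. Only 2 of the 9 genes of the male list were measured, so it cannot show whether the groups match in sex. The endothelial markers Cdh5 and Pecam1 stood at -0.20 and -0.068, the smooth muscle markers Acta2 and Myh11 at -0.059 and -0.30, the fibroblast marker Dcn at -0.061 and the epicardial Wt1 at 0.087. Among 16 macrophage and monocyte probe sets Lyz2, a lysozyme, passed at 0.80 (standard error 0.38), with values of 1.51, 1.51, 1.11, -0.28 and 0.11 in combination hearts and from -0.43 to 0.86 with a median of -0.23 in diabetes hearts, whereas the defining marker Cd68 stood at -0.047. The mean of the macrophage list was 0.34, 0.29, 0.39, -0.17 and -0.022 in combination hearts and lay between -0.23 and 0.21 in diabetes hearts. It was thus high in the 3 hearts in which Kcne1, Ramp3 and Plin3 were high, and its part in those differences was not tested. Among 14 nerve, glia and melanocyte probe sets Mlana alone passed. The erythroid mean ran from -0.30 to 0.96 in combination and from -0.065 to 0.61 in diabetes hearts, and the erythroid enzyme Alas2 stood at 0.078 (standard error 0.33). With the erythroid mean as a covariate 900 probe sets passed.

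Whether the diet difference on the diabetic background departed from the one without diabetes was tested as the interaction in the same fit, where HF diet and control hearts give the second difference. Across the 29170 probe sets 1265 passed the threshold for this term (4.34%), 0 after adjustment in limma, where the lowest adjusted p was 0.358 and 1896 were below 0.05 unadjusted. Of the 886 probe sets 371 (41.9%) passed for the interaction too, and since the term contains the difference that chose them, this share cannot be read against 4.34%. The 2 diet differences share no hearts, and across all probe sets their Pearson correlation was -0.196, a description over genes that are not independent. Edn1 differed by 0.83 with diabetes and -0.09 without, an interaction of 0.92 (standard error 0.36). Nmu differed by 0.56 and -0.15, Slc15a4 by 0.52 and -0.076, and Fgfr2 by -0.48 and 0.094, with interactions of 0.71, 0.59 and -0.57 that passed. Eln was lower with diabetes (-0.46) and stood at 0.52 without, an interaction of -0.98 (standard error 0.30). For other genes the 2 differences had the same sign and the interaction did not pass. Dtx4 stood at -0.47 and -0.25, Bcl2l11 at -0.51 and -0.26, Rcan1 at 0.45 and 0.24, and Snrpd1 at 0.52 and 0.32, with interactions of -0.22, -0.25, 0.22 and 0.20 and standard errors of 0.16 to 0.24. An interaction that does not pass with such errors does not show equal differences. Of the 73 mitochondrial ribosome probe sets 12 passed above and 0 below for the interaction, with a median of 0.29, and the list's median without diabetes was -0.041. Of the 40 chromatin probe sets 7 passed below and 0 above, with medians of -0.28 and 0.036. Without control heart 1, 1678 probe sets passed for the interaction, the correlation of the 2 differences was -0.295, and 23 mitochondrial ribosome probe sets passed above and 16 chromatin probe sets below, with medians of 0.33 and -0.33. The 5 interactions above that passed did so without this heart too, the other 4 did not pass, and for combination minus diabetes 911 probe sets passed without it. The interaction count fell to 830 when control heart 3 was left out, to 797 for control heart 5 and to 623 for combination heart 1. It rose to 2450 on omitting combination heart 4, and to 2600 on omitting diabetes heart 5.

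**Figure D5:**
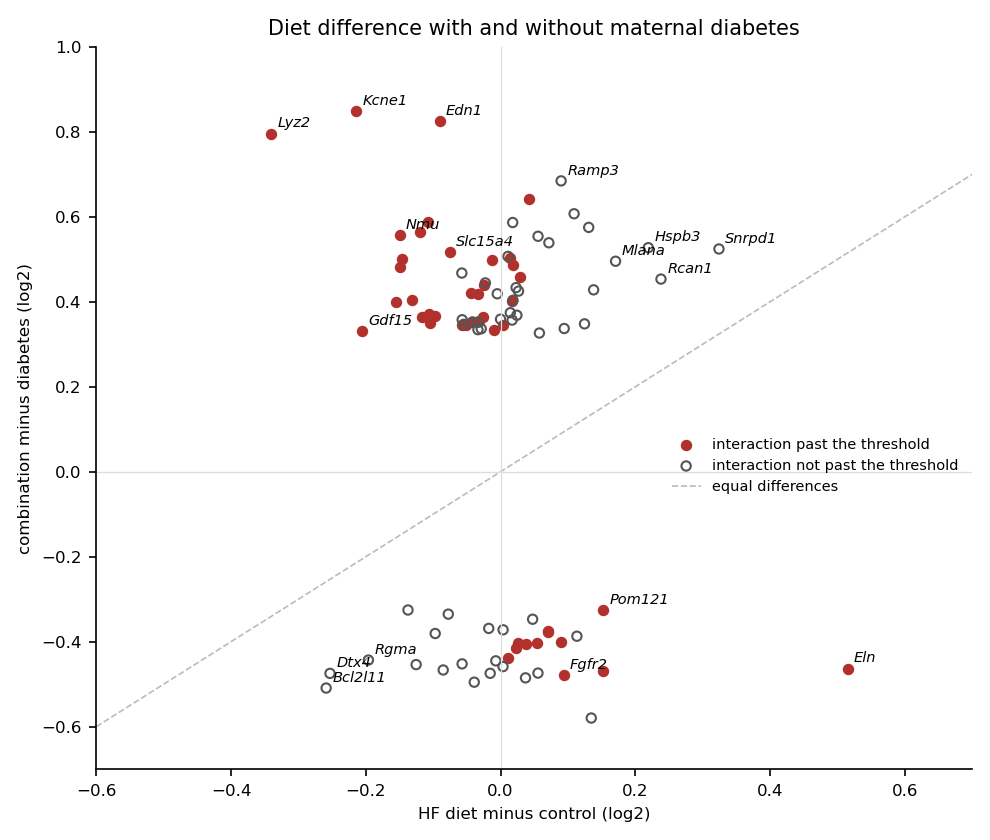
Log2 difference of combination minus diabetes (y axis) against HF diet minus control (x axis) for the 95 passing probe sets of the genes named in the text; filled points passed the threshold for the interaction, open points did not, and the dashed line marks equal differences. Points were chosen on the y axis; most lie near 0 on the x axis, Dtx4, Bcl2l11 and Snrpd1 lie toward the line, and Eln lies at 0.52 on x and -0.46 on y.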

How the data were processed

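The authors deposited 1 log2 value per probe set and heart for 23 newborn rat hearts on Affymetrix Rat Gene 1.0 ST arrays, centred on the median of each of the 29170 probe sets. No source used here names the normalization algorithm. Scale and centring were read from the values, and signal over background is unknown, so the number of hearts limits precision. Of the probe sets 15310 had 1 gene symbol in the platform annotation, 323 several and 13537 none, and 198 held values identical to another probe set. Nothing was filtered.

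Groups came from the sample labels. Differences were fitted over all 4 groups with limma 3.58.1 in R 4.3.3, without covariates, and p-values were adjusted over all probe sets (Benjamini-Hochberg). A probe set passed at a log2 difference beyond 0.32 with an unadjusted p under 0.05, the threshold of the methods, whose unequal variance t-test was an alternative. The interaction was the diet difference with diabetes minus that without. The fit was tested on simulated data. Tables, motifs and plots used Python 3.11.15, pandas 2.3.3, numpy 2.4.6 and matplotlib 3.10.9.

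Named genes passed without overlap of the groups, were among the 10 largest differences in each direction past both tests, were up to 3 passing members per list and direction by p, or were the first 2 of a list. Genes named outside this rule are marked, and no passing probe set with 1 symbol names a microRNA. Probe sets without a symbol could not be checked for microRNAs. The paper lists Mir32, Mir29c and Mir20b as lower in combination than in diabetes hearts, so microRNAs are not covered here. The comparison, members and lists were chosen with earlier results of these data known. Alternatives left out single hearts or hearts sharing a code stem, added blocks or covariates, and changed weights, normalization, scaling or limits.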

Additional observations from a re-analysis of the deposited data

Results flagged for a closer look

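Single hearts stood apart from the rest of their group for 36 of 348 groups of values checked over genes and lists (10.3%), where chance flags about 1 in 20, and 17 of the 36 were combination heart 1. The values of genes and lists share hearts and are not independent.

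Combination heart 1 was the highest of its group for Psma2 (1.357), Timmdc1 (1.148), Ndufs5 by both probe sets (0.976 and 0.949), Mrps10 (0.956), Sec11c (0.824), the second Pam16 probe set (0.637) and Pter (0.566), and for the mean of the proteasome list (0.4558). It was the lowest for Ryr2 (-0.921), Myh7 (-0.707), Pom121 (-0.662), Myh6 (-0.613), Cdh5 (-0.527) and Atp2a2 (-0.486) and for the means of smooth muscle and pericyte markers (-0.4366) and of calcium cycling and ion transport (-0.2269). Combination heart 2 was high for the second Vmp1 probe set (0.261), and combination heart 3 was low for the mean of the cell cycle list (-0.233).

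Diabetes heart 5 was the highest diabetes heart for Kcne1 (1.454), Pam16 by both probe sets (0.846 and 0.444), Yars2 (0.645), Atpaf2 (0.584), Mpc1 (0.538), Ift43 (0.52) and Ndufa2 (0.361). It was also highest for the list means for breakdown of ketone bodies and branched-chain amino acids (0.3542), the mitochondrial ribosome (0.3015), mitochondrial import (0.223), complex I (0.2109) and pyruvate dehydrogenase with the citric acid cycle (0.1651). It was the lowest for Pdk4 (-1.732), Myh6 (-0.237) and the mean of cardiomyocyte markers (-0.1002). Diabetes heart 6 was the highest for Psma2 (0.005).

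For Pom121 the diet difference was -0.3253 with diabetes and 0.1526 without. Each combination heart lay below the diabetes mean and each HF diet heart above the control mean, and the limma interaction was -0.48 at an unadjusted p of 0.00465, which failed the adjustment over all probe sets.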

How the results depend on the processing

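The count of 886 passing probe sets (486 higher, 400 lower) was within 1.5 times itself under 24 of 41 alternatives. Among these 24 were all settings without 1 control or HF diet heart, which gave 851 to 944. Those hearts enter this difference only through the spread, so such settings say little about its stability. It was 288 by the methods' t-test (153 higher, 135 lower), 511 with array weights, 413 after quantile normalization, 431 over probe sets with 1 gene symbol, 2745 with no fold limit and 104 beyond a fold of 1.5. Chosen after seeing the data, it was 143 with the genomic length slope as a covariate (65 higher, 78 lower, of which 68 were among the 886), 436 with arrays scaled to 1 SD, 179 without combination hearts 1 and 2, and 3661 without combination hearts 4 and 5, which lie nearest 0. The interaction count of 1265 was 405 and 3786 without these pairs. Leaving out 1 heart gave 277 to 2143 for the difference, lowest without combination heart 1 and highest without diabetes heart 5, and 623 to 2600 for the interaction, at the same 2 hearts. For adjusted calls, leaving out 1 heart gave 0 to 0, and leaving out combination hearts 4 and 5 gave 1, Ramp3, at 1.29 (standard error 0.135) with a limma adjusted p of 0.000148. These are the hearts in which Ramp3 was low, so this call rests on the choice of hearts.

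The replicate numbers do not pair the hearts, since same-numbered hearts deviated with correlations of -0.0448, -0.234, 0.312, -0.087 and -0.422, and a replicate block gave 371 (205 higher, 166 lower). With the code stem as a random block the count was 805. The genes named in the text had 132 probe sets, of which 95 passed. No difference that passed changed sign under any alternative. Of 5133 recomputed values 659 lost the threshold, but the 5133 include probe sets that did not pass at first and could not lose it. Of the 95, 32 passed without combination heart 1, 51 by the methods' t-test and 8 with the genomic length slope as a covariate. The covariates of protein length and of Y-linked genes were not run, for want of values. The cause of each shift was not tested. Centred values hide signal over background, so a gene near background cannot be told from one measured well.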
